A study of Mus musculus with 4 samples.

Results

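The subject is the RNA of adult mouse brain set against a pooled reference RNA on the same arrays. It comprises 2 of the 4 arrays of the series, chosen by their titles, which name brain replicates 1 and 2. The mice were adults of the inbred laboratory strain C57BL/6J, and the labels call the replicates biological without naming the animals, so the number of animals behind each is not known. The p-values therefore measure the spread between these arrays, in which sample and dye orientation are mixed, and not a spread between animals. On brain replicate 1 the brain RNA carried the dye Cy3 and the reference RNA Cy5, and on brain replicate 2 the dyes were swapped. The deposited readme names the reference as a Universal Mouse Reference RNA made from 11 mouse cell lines. The other 2 arrays hold thymus of the same strain and age against the same reference. They enter here for the spread between arrays and for a direct test of where brain differs. By its title the series accompanies methylome work on the precursors of germ cells, which is not analysed here.

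A 2-colour array measures 2 RNAs at the same spot, so the ratio of the channels does not depend on how much probe the spot carries. The reference is a pool of dividing cultured cells, whereas brain is mostly a mixture of neurons, which do not divide, and glia such as astrocytes, oligodendrocytes and microglia. A ratio above 1 means that a transcript takes a larger share of the brain RNA than of the pool. It is a level relative to that pool and not an absolute amount. In whole tissue, fewer cells of a type and less RNA per cell cannot be told apart. Dye normalization set the centre of the ratios on each array near 0 on the log2 scale at every signal level, so a shift shared by most transcripts would not be seen.

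Most probes of this custom array carry project or clone identifiers. Of 41821 probes, 124 carry an accession, and 13 could be paired with a gene symbol through a RefSeq table of the assembly GRCm38.p6, leaving 41808 unnamed here. No coordinates are given, as the array files state no build. The tissue label could hardly be checked. Of the marker lists for neurons (7 genes), oligodendrocytes (5), microglia and blood (5), endothelium (2) and proliferating cells (4), no member had a probe with a symbol. Of 5 astrocyte markers 1 did, Sox9, and it was higher in brain.

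The scanner software called 55.5% of spots well above background for brain on replicate 1 and 84.2% on replicate 2. For the reference RNA the shares were 68.6% and 61%. For either RNA the share was larger in Cy5 than in Cy3. Negative controls, printed at 314 spots, were called so at 1.91% and 3.5% of these spots in the brain channel and at 1.59% and 3.18% in the reference channel. Median processed signals were 337 and 403 intensity units for brain, against 330 and 391 for the reference. Saturated spots numbered 50 and 220 for brain and 262 and 34 for the reference, of 42034 non-control spots. The arrays were scanned on different days, and array, day, dye orientation and sample cannot be told apart.

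Brain differed from the reference RNA at a large part of the array. A probe was tested when either RNA was well above background on both brain arrays, which held for 26825 probes, and 26788 of these had a value on all 4 arrays. Of these, 12584 (47%) differed at an adjusted p under 0.05 by limma with Benjamini-Hochberg adjustment. They divided into 5841 (21.8%) higher and 6743 (25.2%) lower in brain. At an unadjusted p under 0.05 there were 6665 and 7652. The test set the mean log2 ratio against 0, with the spread estimated from the brain and the thymus arrays together, and it leaves out any spread between preparations of the reference.

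Small differences were more often towards the reference and large ones towards brain. Under 2-fold, 1997 called probes were higher and 2809 lower in brain. Between 2-fold and 8-fold there were 2822 higher and 3510 lower. At 8-fold or more the balance turned, with 1022 higher and 424 lower, and past 32-fold there were 225 and 44. Counted on each array alone, 812 probes were more than 8-fold higher and 322 more than 8-fold lower on both. Each balance of mean ratios lay on the same side with normexp and loess, barely so between 2-fold and 8-fold (2496 higher and 2509 lower). Each balance also lay on that side with each array centred on its median. The count on both arrays was made with neither. Without brain replicate 1, the one under 2-fold turned, to 2114 higher and 2081 lower, and the calls of all sizes were 6089 higher and 5960 lower. Past 2-fold without regard to the call, 3875 probes were higher and 3975 lower, a balance that turned with centring (4033 and 3759) and with normexp and loess (2963 and 2707).

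**Figure D1:**
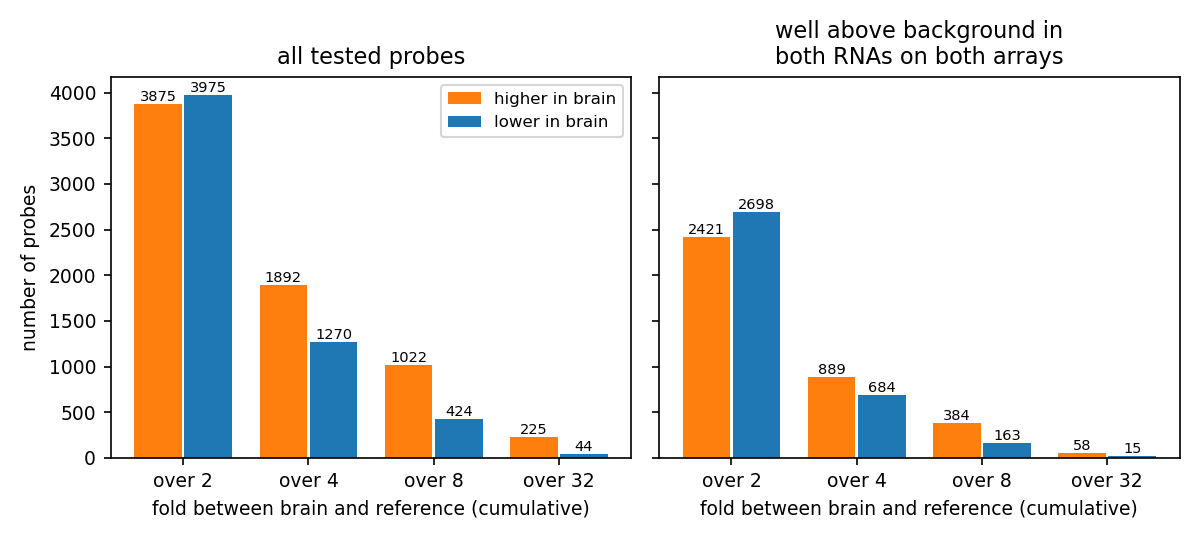
Number of probes (vertical axis) whose mean ratio of brain to reference passed 2, 4, 8 or 32-fold (horizontal axis, cumulative), higher in brain in orange and lower in blue. Over all tested probes 1022 were past 8-fold higher and 424 lower, and among probes well above background in both RNAs on both brain arrays 384 and 163.

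The counts past 8-fold and 32-fold were lower among the probes measured in both RNAs, and lower under another processing of the spots. Among the 21148 tested probes well above background in both RNAs on both brain arrays, 384 were more than 8-fold higher and 163 more than 8-fold lower in brain, and 58 and 15 were past 32-fold. With normexp background correction (offset 50) and loess, which replace the background, the offset and the dye normalization together, the counts over all tested probes were 464 and 162 past 8-fold and 58 and 6 past 32-fold. In each of these counts, more probes were higher than lower in brain.

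The dye-swapped arrays gave similar ratios. Across the 26788 tested probes, which share these arrays and are not independent replicates, the log2 ratios of the arrays had a Pearson correlation of 0.927 and a Spearman correlation of 0.847 once both were written as brain over reference. The ratio had the same sign on both arrays at 21175 probes (79%), above 0 at 9663 and below 0 at 11512. The sign was also the same at all 12584 called probes, but the call rests on these same arrays, so nothing is read from that. The SD of the difference between arrays was 0.536 log2 units, against an SD of the ratio itself of 1.42 on replicate 1 and 1.37 on replicate 2. For 93.8% of probes the arrays lay within 2-fold of each other. With each channel scaled to its 75th percentile, the brain signal differed between arrays with an SD of 0.571 and the reference signal, nominally the same RNA, with an SD of 0.5. The dye changed between the arrays in both channels, so each of these SDs includes a change of dye.

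**Figure D2:**
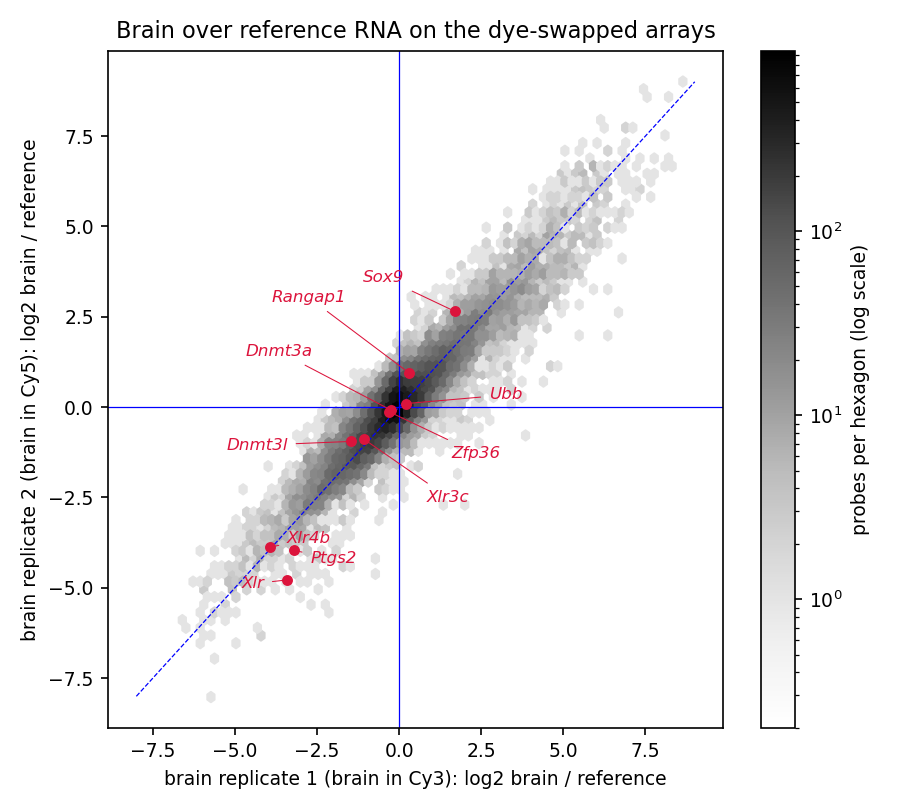
Log2 ratio of brain to reference on brain replicate 1 (horizontal axis, brain in Cy3) and brain replicate 2 (vertical axis, brain in Cy5) for the 26788 tested probes, shaded by the number of probes per hexagon on a log scale, with the 10 tested genes in red and equal ratios on the dashed line. The probes follow the dashed line (r = 0.927), Sox9 lies to the upper right, and Xlr, Xlr4b and Ptgs2 lie far to the lower left.

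Signal level set the precision. In the dimmest of 5 equal bins, with mean signals of both RNAs from 67 to 339 intensity units, the SD between arrays was 0.77 and 83.6% of probes agreed within 2-fold. In the bin from 1270.3 to 3072 units the SD was 0.392 and the share 98.3%. In the brightest bin it was 0.459. The share of probes called was 49.1% in the dimmest bin, 38.3% in the next, and 57.7% in the brightest. In each bin, more probes were called lower than higher in brain. The dimmest bin holds probes that were tested only because one RNA was bright. A probe printed many times showed the error within an array. The mouse RefSeq table pairs no gene with the probe named NM_123203.2, so its target is not known here. Its log2 ratio over 97 spots of replicate 1 was 0.01 ± 0.41 (SD over spots). Over 94 spots of replicate 2 it was 0.26 ± 0.31. This probe is dim, with brain well above background at a share of only 0.36 of its spots on replicate 1. Another such probe, NM_120231.2, likewise without a gene symbol, had 0.55 ± 0.31 over 87 spots of replicate 1. Over 88 spots of replicate 2 it had 0.59 ± 0.35. The reference was not well above background at any of its spots on these arrays.

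**Figure D3:**
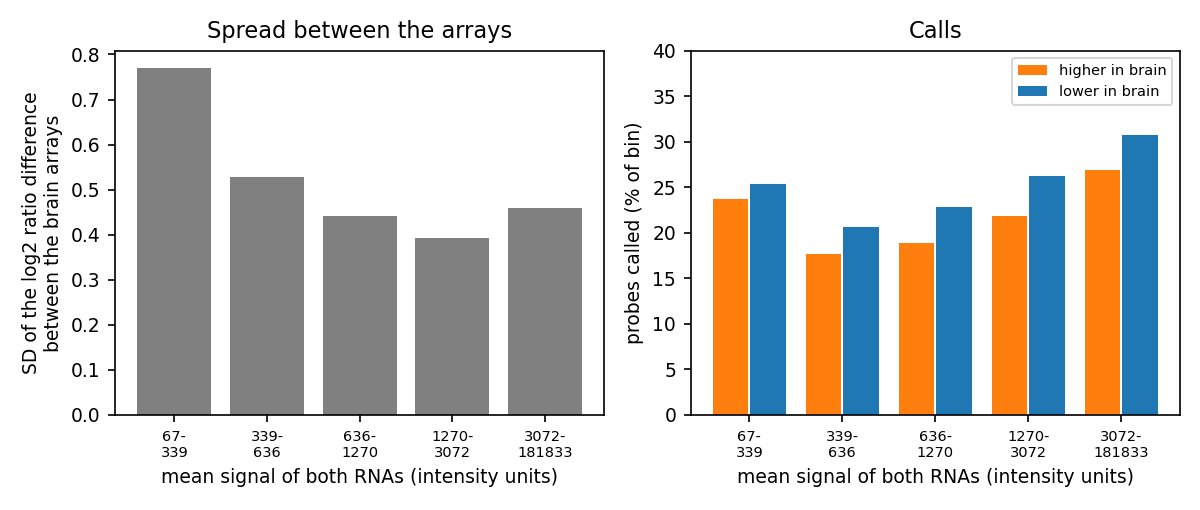
The 26788 tested probes in 5 bins of mean signal of both RNAs (horizontal axes, intensity units). The left panel gives the SD of the log2 ratio difference between the brain arrays, which is highest at 0.77 in the dimmest bin, and the right panel gives the percentage of probes called higher (orange) or lower (blue) in brain, lower calls being the more frequent in every bin.

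The scanner software gives a p-value from its own error model for each array alone. By those in the authors' deposited table for each array, 9218 probes (34.4%) had p under 0.01 on both brain arrays in the same direction, 4421 of them higher and 4797 lower in brain. The rule and the threshold differ from those of limma, so the numbers of calls do not rank the error models. Of these 9218, limma also called 9162.

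Detection in 1 RNA alone was uncommon under the flags. At 860 probes brain was well above background on both arrays and the reference on neither, and at 126 the reverse held. Folds at these probes are given as bounds that rest on the processed signals. They were computed on each array against the higher of the dim channel's own signal and the lowest signal called well above background in it, and averaged over the arrays. The median bound was 2.83-fold higher in brain for the 860 and 3.66-fold lower in brain for the 126. The lowest such signal was 246 and 48.3 units in the brain channel, against 123 and 222 units in the reference channel. Without brain replicate 1 they were 9831 for brain and 197 for the reference, and without brain replicate 2 they were 956 and 6397. With 1 common floor of 246 units the counts were 1375 for brain and 1064 for the reference. A further 763 called probes higher in brain had the reference well above background on 1 array only, and 1655 called probes lower in brain had brain so on 1 array only.

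The largest ratios measured in both RNAs, at probes saturated in neither, were the following. The files do not pair these identifiers with genes, and they were taken for their size. TF15317 had a brain signal of 61396 and 51544 units, against 463 and 233 units in the reference. Its mean log2 ratio was 7.42 (SE 0.34), which is 171-fold, and its limma adjusted p was 5.64e-05. TB1322 had 79402 and 65206 units in brain, against 842 and 681 in the reference, a log2 ratio of 6.57 (SE 0.15), or 95-fold. On the thymus arrays TF15317 was well above background in thymus on replicate 2 alone, at 81.1 units, and in the reference on neither. TB1322 had 119 and 348 units in thymus, against 119 and 280 in the reference, well above background on replicate 2 alone in either channel. The reference signal at both probes was thus higher on the brain arrays than on the thymus arrays, so the size of both folds is uncertain, and the cause was not tested. Towards the reference, TB3343 had 661 and 839 units in brain, against 64116 and 60601 in the reference, a log2 ratio of -6.39 (SE 0.17). TB2125 had 292 and 205 units in brain, against 15483 and 14959, a log2 ratio of -5.96 (SE 0.19). Their mean log2 ratios in thymus were -3.79 and -4.87. Both were thus brighter in the pool than in either tissue. The limma adjusted p was 3e-05 for TB1322, TB3343 and TB2125. With normexp and loess the log2 ratios were 6.70 for TF15317, 6.17 for TB1322, -5.99 for TB3343 and -5.01 for TB2125.

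Of the 13 genes with a symbol, 10 were tested, of which 1 was higher in brain, 5 were lower and 4 did not pass the threshold, where 21.8% of all tested probes were called higher and 25.2% lower. Their median log2 ratio was -0.60, against -0.04 over all tested probes. Only 6 of the 10 were well above background in both RNAs on both brain arrays. The other 4 (Sox9, Xlr, Xlr4b and Ptgs2) were tested through the RNA in which they were brighter, so these numbers describe a small and uneven set and nothing is read from them. None of the 13 probes was saturated on the brain arrays.

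**Figure D4:**
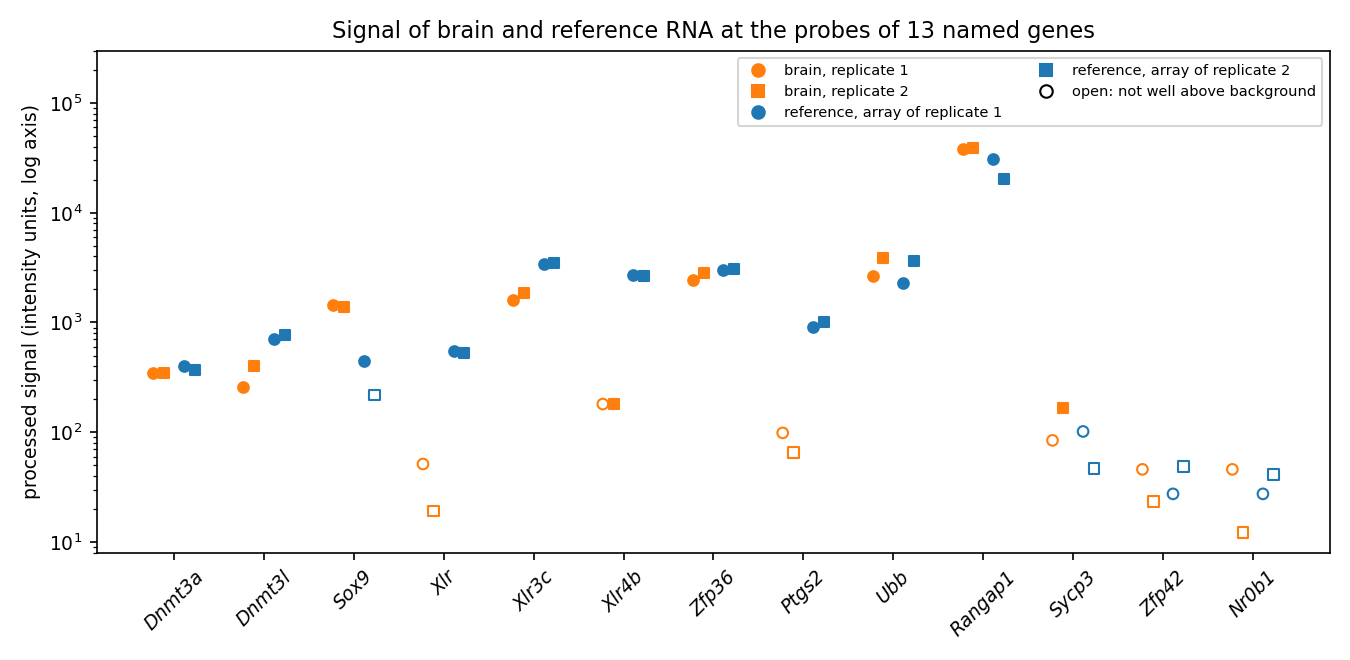
Processed signal (vertical axis, intensity units, log axis) of brain (orange) and reference RNA (blue) at the probes of 13 genes on the array of replicate 1 (circles) and replicate 2 (squares), with open symbols where the spot was not well above background (on replicate 1, Zfp42 and Nr0b1 stand at a value shared by many spots). Brain lies above the reference for Sox9 and far below it for Xlr, Xlr4b and Ptgs2, while Dnmt3a, Zfp36 and Ubb lie close together.

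Methyl groups on cytosine are set at new sites by the enzymes Dnmt3a and Dnmt3b, and Dnmt3l binds them as a cofactor that has no catalytic activity of its own. In brain, Dnmt3a also methylates cytosines outside CG sites in neurons after birth. The Dnmt3a probe had 344 and 346 units in brain, against 405 and 368 units in the reference. The log2 ratio was -0.24 on replicate 1 and -0.09 on replicate 2, a mean of -0.16 ± 0.11 (SD, n = 2), and it did not pass the threshold (SE 0.19, limma adjusted p 0.524). Brain was the lower channel on both arrays, by less than the test could tell from 0. The Dnmt3l probe had 256 and 401 units in brain, against 702 and 773 in the reference. Its log2 ratio of -1.20 ± 0.36 (SD, n = 2), or 2.3-fold lower in brain, passed the threshold (SE 0.18, limma adjusted p 0.00286). It was -1.45 on replicate 1 and -0.95 on replicate 2, so the brain signal was below the reference on both. Of the 2 measured members of the DNA methylation list, 1 was thus lower in brain and 1 was not called, where 25.2% of all tested probes were called lower and 21.8% higher.

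Sox9 is a transcription factor of neural stem cells, astrocytes and cartilage. Its probe had 1440.2 and 1371 units in brain, against 444 and 219 in the reference. The brain signals were alike on both arrays and the reference signal was lower on the array of replicate 2, where it lay just under the lowest signal called well above background in that channel, 222 units. The log2 ratio was 1.70 and 2.65, a mean of 2.17 ± 0.67 (SD, n = 2), and it passed the threshold (SE 0.34, limma adjusted p 0.00347). The reference was well above background on replicate 1 alone, where the log2 ratio was 1.70, and the probe was tested through brain, the RNA in which it is brighter. The size of the ratio is therefore uncertain, and with normexp and loess the log2 ratio was 1.37.

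The Xlr genes form an X-linked family of related copies, named from lymphocytes, whose products resemble the synaptonemal complex protein Sycp3. Probes may pick up several copies, so the assignment to a member is uncertain. All 3 members with a probe were called lower in brain, where 25.2% of all tested probes were. Xlr and Xlr4b were tested through the reference RNA, in which they are brighter, so nothing is read from that count. Xlr4b had 180.4 and 182 units in brain, against 2733 and 2667 in the reference. Its log2 ratio was -3.92 and -3.88, a mean of -3.90 ± 0.03 (SD, n = 2), with a limma adjusted p of 3.06e-05 (SE 0.13). Brain was well above background on replicate 2 alone, and its 180.4 units on replicate 1 lay under the lowest signal called so there, 246 units. The size of the ratio is therefore uncertain, and with normexp and loess the log2 ratio was -2.81.

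Xlr had 51.3 and 19.2 units in brain, not well above background on either array, against 545 and 527 in the reference. The bound, averaged over the arrays, was 4.92-fold lower in brain, and the measured log2 ratio was -4.10 (limma adjusted p 0.000235). The measured ratio was -3.41 on replicate 1 and -4.78 on replicate 2, while the reference signal was alike on both arrays. Xlr3c was well measured in both RNAs, at 1611 and 1876 units in brain and 3391 and 3467 units in the reference. Its log2 ratio was -0.98 ± 0.13 (SD, n = 2), or 1.97-fold lower in brain, with a limma adjusted p of 0.0023 (SE 0.14).

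Zfp36 encodes an RNA-binding protein that promotes the decay of mRNAs with AU-rich elements, and Ptgs2, the inducible cyclooxygenase of prostaglandin synthesis, has such an mRNA. Zfp36 had 2450.0 and 2798 units in brain, against 3040 and 3053 in the reference, a log2 ratio of -0.22 ± 0.13 (SD, n = 2) that did not pass the threshold (SE 0.15, limma adjusted p 0.274). Ptgs2 had 98.5 and 65.3 units in brain, not well above background on either array, against 913 and 1019 in the reference. The bound, averaged over the arrays, was 7.6-fold lower in brain, and the measured log2 ratio was -3.59 (limma adjusted p 0.000184). With normexp and loess the measured log2 ratios of Ptgs2 and Xlr were -2.04 and -2.03. Both are smaller in size than the bounds, which were 2.93 and 2.30 log2 units, so the size of both folds is uncertain.

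Ubb, a polyubiquitin gene, and Rangap1, the GTPase-activating protein of Ran in nuclear transport, serve all cells, and neither was called. Ubb had 2633 and 3861 units in brain, against 2294 and 3610 in the reference. Both channels were brighter on replicate 2 and the log2 ratio stayed at 0.20 and 0.10 (mean 0.15 ± 0.07, SD, n = 2, SE 0.14, limma adjusted p 0.43). Rangap1 had 37776 and 39030.2 units in brain, against 30897 and 20143 in the reference. Its log2 ratio was 0.29 and 0.95, a mean of 0.62 ± 0.47 (SD, n = 2), with a limma adjusted p of 0.0822 (SE 0.24). Between the brain arrays the reference signal changed more than the brain signal, and the dye of both changed too. On the thymus arrays the log2 ratio of Rangap1 was 0.01 with thymus in Cy3 and 0.69 with thymus in Cy5. The cause was not tested. Rangap1 passed the threshold with normexp and loess, at a log2 ratio of 0.81 and an adjusted p of 0.0156, without brain replicate 1, at 0.95 and 0.045, and with the replicate number, which is the dye orientation, as a block, at 0.62 and 0.0107.

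The germ cell and pluripotency genes Sycp3, which pairs chromosomes in meiosis as part of the synaptonemal complex, Zfp42, a zinc finger factor of pluripotent cells, and Nr0b1, a nuclear receptor of embryonic stem cells and steroid-producing tissue, were not tested. Sycp3 had 84.2 and 166 units in brain, the second well above background, against 102 and 46.4 in the reference, neither well above background. Its log2 ratio was -0.27 and 1.84, with opposite signs on the arrays. On replicate 1, Zfp42 and Nr0b1 hold no signal of their own. Both are listed at 45.8 units in brain and 27.4 in the reference, a pair of values that 5165 spots of that array share, none of them with a positive and significant signal, and that equals the medians of the negative controls. On replicate 2, Zfp42 had 23.2 units in brain and 48.4 in the reference, as a mean over 10 spots, and Nr0b1 had 12.2 and 41.1, none well above background. No tested probe holds the shared value on a brain array. These 3 probes give no ratio of brain to reference.

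The ratios to the reference were more widely spread in brain than in thymus. The comparisons share the reference RNA. Over 23018 probes detected above background in the reference RNA of every array, a filter that uses neither tissue and was chosen after seeing the data, the log2 ratio had an SD of 1.16 and 1.14 on the brain arrays, against 0.868 and 0.822 on the thymus arrays. A ratio past 2-fold was found at 27.1% and 26.3% of these probes in brain and 16.2% and 15% in thymus. With 2 arrays of each tissue an exact permutation test could not reach the threshold, and none is given. Over the same probes limma called 10791 (46.9%) in brain, 4132 higher and 6659 lower. In thymus it called 7362 (32%), 3053 higher and 4309 lower. The filter leaves out probes dim in the reference, so nothing is read from the lean to lower calls in either tissue. Over the 26788 probes tested in brain, 7192 (26.8%) were called in thymus.

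The difference between tissues was tested directly in the same fit, where the reference cancels as far as its signal was alike on the arrays of both tissues. At TF15317 and TB1322 it was not. No scan day holds both tissues, so tissue and scan day cannot be told apart. The brain ratio differed from the thymus ratio at 9119 of 26788 probes (34%), higher in brain at 4688 (17.5%) and lower at 4431 (16.5%). The probes were chosen by detection of brain or reference RNA on the brain arrays, and detection in thymus played no part. Transcripts bright in thymus alone were thus not tested, and nothing is read from the split between higher and lower. On thymus replicate 1, 477 of the tested probes hold in both channels the value shared by 7619 spots of that array, and 430 of these were among the calls. Left out, they leave 8854 calls among 26311 probes. Without thymus replicate 1 the number of calls was 5539, and without thymus replicate 2 it was 5819. Of the probes called higher in brain than in the reference, 3774 (64.6%) were also higher in brain than in thymus by that test. Of those called lower in brain than in the reference, 3421 (50.7%) were also lower in brain than in thymus. The brain arrays enter both calls, so these shares are a description.

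Among the tested genes, 3 of 10 differed between the tissues, where 34% of all tested probes did. Sox9 had a log2 ratio of 2.17 in brain and -1.25 in thymus, a difference of 3.43 (SE 0.49, limma adjusted p 0.00372). Thymus was well above background for Sox9 on replicate 2 alone. Xlr4b had -3.90 in brain and 1.07 in thymus, a difference of -4.97 (SE 0.19, limma adjusted p 0.00019), with brain well above background on 1 of its arrays. Dnmt3a, which in brain was not told apart from the reference, had -0.16 in brain and 1.65 in thymus, a difference of -1.81 (SE 0.27, limma adjusted p 0.00413). For Ptgs2, Xlr and Xlr3c the brain ratios of -3.59, -4.10 and -0.98 stood beside -3.66, -3.47 and -0.90 in thymus, and no difference passed the threshold (limma adjusted p 0.901, 0.353 and 0.793). For Ptgs2 and Xlr, brain was well above background on neither array and thymus on replicate 2 alone.

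**Figure D5:**
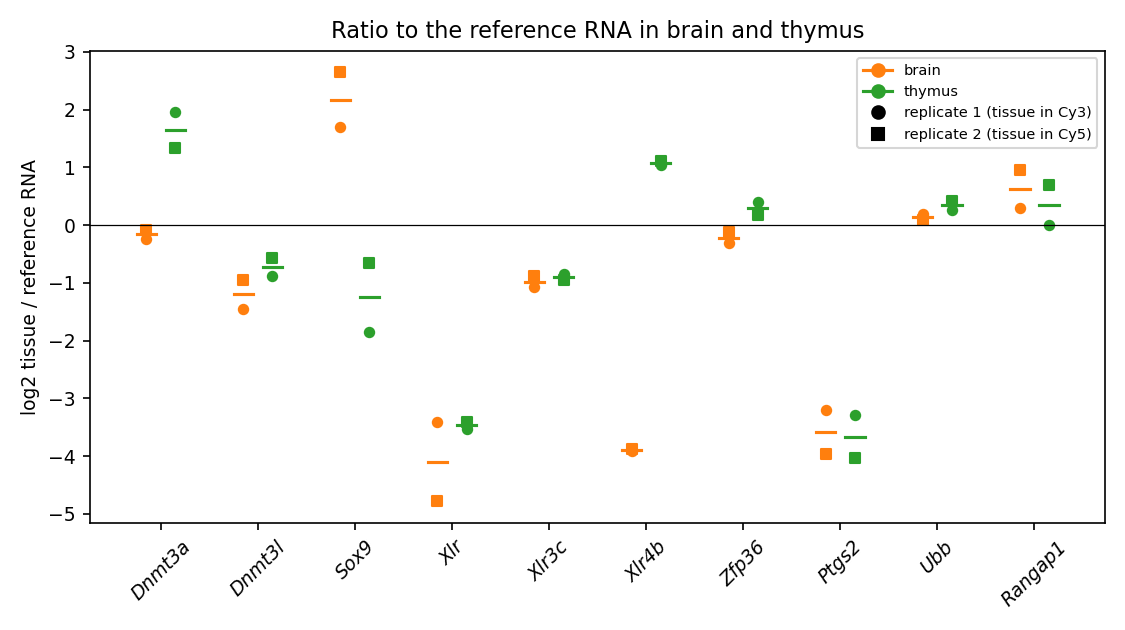
Log2 ratio to the reference RNA (vertical axis) at the probes of the 10 tested genes in brain (orange) and thymus (green), as replicate 1 (circle, tissue in Cy3), replicate 2 (square, tissue in Cy5) and their mean (bar). Sox9 stands at 2.17 in brain and -1.25 in thymus, Xlr4b at -3.90 and 1.07, and Ptgs2 at -3.59 and -3.66.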

How the data were processed

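Agilent Feature Extraction 10.5.1.1 gave the deposited spot intensity values, as the file headers and the submitters' processing notes state. In the processed signal each spot has its background subtracted and its dyes normalized within each array, per the file headers. The deposited log10 ratio of red over green equalled the ratio of these signals within 0.01 log2 units at 100% of spots with either RNA well above background. The deposited p-value belongs to that ratio within 1 array. The authors' deposited value table holds log2 signals of the tissue channel alone (column medians -0.00132 and 0.00472 for brain), with its centring unstated, and was used only to check the channels.

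Log2 processed signal of the reference was subtracted from that of brain on each array, with dyes as the labels and the readme give them. Control spots and outlier-flagged spots were left out and spots of a probe averaged, a probe counting as well above background when more than 0.5 of its spots did. limma 3.58.1 in R 4.3.3 was fitted to all 4 arrays with a mean per tissue (2 residual and 3.69 prior degrees of freedom). The script was tested on simulated data. The members and lists were chosen with earlier results of these data known. The genes named are all those with a symbol, and the 2 unnamed probes with the largest ratio each way among called, unsaturated probes well above background in both RNAs. The files hold no mean signal, so normexp (offset 50) used median signals. Few arrays limit the precision.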

Additional observations from a re-analysis of the deposited data

Results flagged for a closer look

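Of the 10 tested genes, 3 had a ratio to the reference RNA that differed between brain and thymus by the test of the difference itself, where 34% of all tested probes did, so the count is near that of the whole array. The log2 difference, brain minus thymus, was 3.43 for Sox9 (limma adjusted p 0.00372), -4.97 for Xlr4b (0.00019) and -1.81 for Dnmt3a (0.00413). The size is uncertain for Sox9, whose reference on brain replicate 2 and thymus on replicate 1 were not well above background, and for Xlr4b, whose brain signal on replicate 1 was not. For Sox9 and Xlr4b the brain and thymus ratios had opposite signs on both arrays of each tissue. For Dnmt3a, both brain ratios were below 0 and both thymus ratios above it.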

How the results depend on the processing

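Over all alternatives the adjusted p of Sox9, Xlr, Xlr4b and Ptgs2 stayed under 0.05 where the probe was tested, and no tested gene's ratio changed sign. Against a log2 ratio of 1, Dnmt3l (adjusted p 0.65) and Xlr3c (adjusted p 1) were not called and 4323 probes were, 2377 higher and 1946 lower in brain (a stricter test). Ubb was called with normexp and loess alone (0.28, adjusted p 0.0348); the cause was not tested. Leaving out each array gave 11132 to 12049 calls against the reference, 5235 to 6089 higher and 5897 to 6320 lower. Without either thymus array the fit rests on the brain spread alone. Where 1 array of a tissue is left, it is taken to vary as much as the other tissue's pair. The split between higher and lower stayed within 10 percentage points under each scaling. The replicate number is also the dye, and the labels do not say that it marks a shared animal. The dye terms of brain and thymus correlated at 0.18 across probes. With the replicate block 13655 probes were called, 12543 of them shared with the 12584, and Rangap1 was called (adjusted p 0.0107). Brain against thymus gave 5546 calls with no filter on dim probes (3049 higher, 2497 lower; more probes tested) and 5539 to 9648 with each array left out (2279 to 4603 lower in brain), 5539 without thymus replicate 1 and 5819 without thymus replicate 2.

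Past 8-fold and 32-fold the counts moved with normexp and loess (464 higher and 162 lower, 58 and 6; the cause was not tested) and with the filter on both RNAs (384 and 163, 58 and 15; fewer probes). For probes detected in brain alone, the flag for positive and significant signal gave 569, the rule of at least 1 array gave 6446, and the count was 9831 without brain replicate 1, 956 without brain replicate 2 and 1375 with the common floor. In the reference alone it was 68, 470, 197, 6397 and 1064. The SD between brain arrays was 0.281 with normexp and loess and 0.948 with no filter, which adds probes dim in both RNAs. Without the 477 probes at a shared value on thymus replicate 1 there were 12296 calls against the reference. That setting, the common floor and the filter on the reference RNA were chosen after seeing the data. No scan day holds both tissues, so scan day was not fitted.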

Other observations

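The share of probes called differed with the kind of identifier on the array, whose meaning the files used here do not give. Among 13984 tested probes with identifiers starting TF, 21.6% were called higher in brain and 18.3% lower, with a median log2 ratio of 0.01. Among 7268 starting TB the shares were 25% and 31.8%, with a median of -0.07. Among 4412 whose identifiers start with 1 and a letter, as plate positions of clones would, 17.5% were higher and 35.9% lower, with a median of -0.23. Of 124 probes named by an accession, 85 were tested, of which 13 (15.3%) were higher in brain and 34 (40%) lower, with a median of -0.17. Over all tested probes 21.8% were called higher and 25.2% lower. The share of probes that could be tested also differed, at 55.3% for TF, 77.1% for TB, 81.8% for the third kind and 68.5% for accessions. These shares were looked at after the data were seen, and no test was made.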
